A study of Rattus norvegicus with 48 samples.

Results

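Spon2 (ENSRNOG00000006033), Adamts12 (ENSRNOG00000018865), Tns2 (ENSRNOG00000010588) and Sash1 (ENSRNOG00000013160) were followed in the left ventricle of rats given methamphetamine or saline. They are 4 of the 32883 genes counted, and were chosen by name from genes that the study listed as altered by methamphetamine in female but not male hearts at day 11. The day 11 values of the 4 genes therefore chose them, and are given below as a description without a test. Only the libraries collected after abstinence had no part in that choice.

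All rats were Sprague Dawley animals, 8 weeks of age when injections began, and came from litters that had been divided over the groups. Saline, or methamphetamine at 5 mg/kg, was injected subcutaneously each day for 10 days. Hearts were taken 24 h after the last injection (day 11) or 30 days after it (abstinence), which gives 8 groups of sex, treatment and time point. The hearts had been perfused with Krebs solution before the left ventricle was sampled, and each library is the whole tissue of 1 rat, so fewer cells of a type and less RNA per cell cannot be told apart. Of 46 marker genes for 8 cell types, 3 could be matched to a row: Myl4 of atrial cardiomyocytes, Pdgfrb of smooth muscle and pericytes, and Ptprc of leukocytes. No defining marker of ventricular cardiomyocytes was among them, so the labelled tissue could not be checked against its own markers.

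Total counts ranged from 6661581 to 11314050 in the 47 libraries, with a median of 9020989. The 8 libraries labelled replicate 5, 1 in each group, stood apart from the other 39. With 4 genes found in males and 2 found in females as a guide, the 4 such libraries labelled female held the male genes at 86.6% to 117% of the male median, and the 4 labelled male held them at 7.46% to 11.9%. In the other libraries labelled female these genes lay between 0 and 2.84% of that median. The values below leave out the libraries labelled replicate 5, which are given apart, which leaves 4 libraries of saline-treated females at day 11 and 5 in each other group. Each time point was sequenced as a pool of its own, and the effects of time and pool cannot be told apart. Saline-treated males at day 11, moreover, all had animal numbers of an earlier series, whereas the other groups at day 11 and the males after abstinence had numbers of a later series. Where saline-treated males at day 11 are compared with another of these groups, the series cannot be told apart from treatment, sex or time. Only females after abstinence came from both series, so sex and series are mixed in part where the sexes are compared after abstinence.

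The 4 genes encode proteins of the extracellular matrix and of the contacts between matrix and cytoskeleton. Spondin 2, or mindin, is a secreted matrix protein that binds integrins and takes part in innate immune responses. ADAMTS12 is a secreted zinc metalloprotease with thrombospondin repeats that can cleave cartilage oligomeric matrix protein. Tensin 2 sits at focal adhesions, where tensins join the tails of integrins to actin, and SASH1 is a scaffold protein with SAM and SH3 domains that has been linked to TLR4 signalling in endothelial cells. In the heart, the matrix carries force between cardiomyocytes and is made mostly by fibroblasts.

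The promoter windows of the 4 genes are shown because 3 of the genes were lower, and Tns2 higher, in the same methamphetamine-treated female hearts. Each window is RefSeq sequence of the build GRCr8 on the gene's own strand, from 250 bases before the annotated start to 50 after it. The counts themselves were made on the older build rn6. The windows lie at chr14:81736466-81736765 (Spon2, plus strand), chr2:61759737-61760036 (Adamts12, plus strand), chr7:135112309-135112608 (Tns2, plus strand) and chr1:5105993-5106292 (Sash1, minus strand). Capitals mark the matches to 6 motifs searched on both strands.
Spon2: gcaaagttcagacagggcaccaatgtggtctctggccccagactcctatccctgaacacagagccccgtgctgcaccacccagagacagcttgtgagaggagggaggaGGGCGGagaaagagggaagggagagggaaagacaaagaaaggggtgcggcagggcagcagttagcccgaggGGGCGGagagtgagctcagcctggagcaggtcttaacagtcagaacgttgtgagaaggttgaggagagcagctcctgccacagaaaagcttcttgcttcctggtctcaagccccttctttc
Adamts12: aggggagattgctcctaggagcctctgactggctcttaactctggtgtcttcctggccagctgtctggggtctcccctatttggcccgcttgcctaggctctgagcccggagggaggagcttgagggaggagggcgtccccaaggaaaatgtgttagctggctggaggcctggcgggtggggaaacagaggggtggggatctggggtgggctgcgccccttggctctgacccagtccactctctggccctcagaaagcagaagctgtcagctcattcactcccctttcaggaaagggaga
Tns2: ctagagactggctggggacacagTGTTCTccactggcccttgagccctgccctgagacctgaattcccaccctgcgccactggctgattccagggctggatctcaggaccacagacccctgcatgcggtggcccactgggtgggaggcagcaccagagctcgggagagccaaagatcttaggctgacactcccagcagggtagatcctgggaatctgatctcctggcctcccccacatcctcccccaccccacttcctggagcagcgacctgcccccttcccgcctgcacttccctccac
Sash1: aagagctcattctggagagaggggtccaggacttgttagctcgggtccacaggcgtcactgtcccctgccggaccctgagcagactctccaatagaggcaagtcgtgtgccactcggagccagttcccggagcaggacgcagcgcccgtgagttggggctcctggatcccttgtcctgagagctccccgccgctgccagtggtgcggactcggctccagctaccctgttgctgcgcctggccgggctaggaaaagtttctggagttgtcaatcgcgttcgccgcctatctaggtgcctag

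The motifs were the E-box CACGTG, the D-box TTATGTAA, the TEAD motif GGAATG, the AP-1 motif TGAGTCA, the GC box GGGCGG and the core AGAACA of the glucocorticoid receptor motif. The Spon2 window held the GC box at 2 places, starting 142 and 71 bases before the start. This motif was in 33.1% of all 33469 rat promoter windows of the same length. The Tns2 window held AGAACA on the opposite strand, in the printed window as TGTTCT, with its first base 227 bases before the start, and 20.7% of all windows held it. None of the 6 motifs was found in the Adamts12 or Sash1 window, and no match overlapped another. The E-box was in 6.42% of all windows, the D-box in 0.893%, the TEAD motif in 14.2% and the AP-1 motif in 4.63%, and the 4 windows shown had none of these. GC content was 58.0% for Spon2, 61.3% for Adamts12, 63.7% for Tns2 and 62.7% for Sash1, against a median of 51.7% over all windows. The Sash1 window held 19 CpG dinucleotides, whereas the others held 5 or 6.

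Levels are given in CPM, the counts of a gene per 1000000 counts of its library, and can be compared between libraries for the same gene only. Over the 39 libraries Spon2 had 20 to 212 counts, Adamts12 210 to 1023, Sash1 302 to 766 and Tns2 1003 to 2333. Counting error was therefore largest for Spon2. The group means of Spon2 spanned 6.28-fold, those of Adamts12 1.98-fold, those of Sash1 1.63-fold and those of Tns2 1.42-fold.

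**Figure D1:**
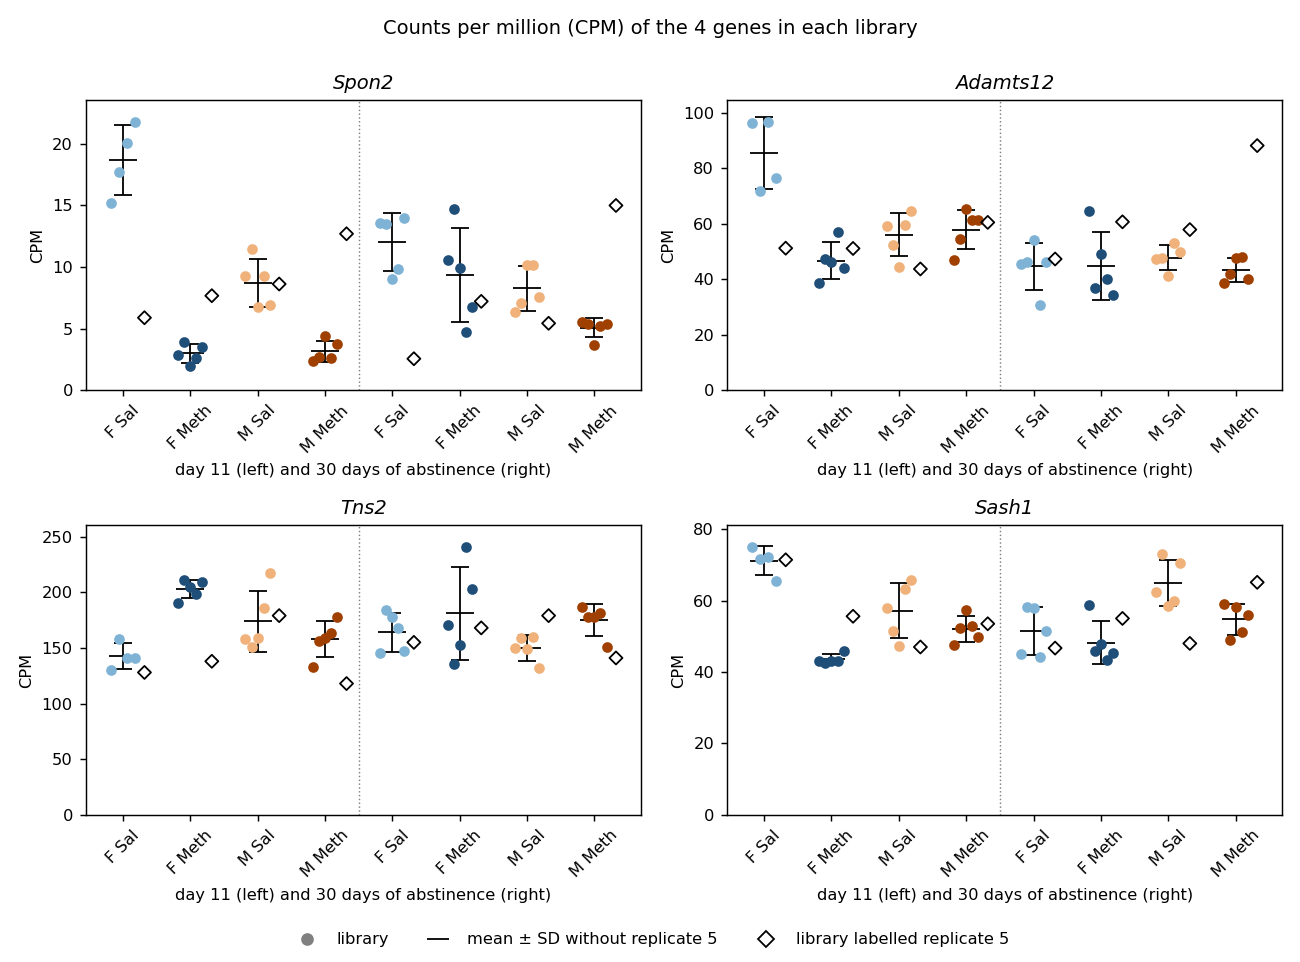
CPM (y axis, linear from 0) of each gene by group (x axis, day 11 left of the dotted line and abstinence right of it). Filled points are libraries, bars are the mean and SD without replicate 5, and open diamonds are the libraries labelled replicate 5. Spon2 lay between 2.00 and 3.88 CPM in methamphetamine-treated females at day 11 and between 15.2 and 21.8 CPM in saline-treated females.

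Spon2 showed the widest range of the 4 genes, and was lower in methamphetamine-treated hearts at day 11 in both sexes. At day 11 the libraries of saline-treated females held 15.2, 17.7, 20.1 and 21.8 CPM, and in methamphetamine-treated females 2.00, 2.63, 2.83, 3.54 and 3.88 CPM. The means were 18.7 ± 2.86 CPM (SD, n = 4) and 2.98 ± 0.748 CPM (SD, n = 5). Every methamphetamine-treated female lay below every saline-treated female, and the log2 fold change was -2.63 (standard error 0.16), which is 6.19-fold lower. All methamphetamine libraries lay below all saline libraries in 4.95% of the 13986 genes tested in this comparison, and nothing is read from this, as the comparison chose the gene.

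In males at day 11, Spon2 stood at 6.73, 6.91, 9.26, 9.28 and 11.5 CPM with saline and at 2.36, 2.65, 2.67, 3.72 and 4.37 CPM with methamphetamine. These groups did not overlap either, as was the case below saline for 3.69% of 13887 genes. Methamphetamine-treated males were 2.79-fold lower (log2 fold change -1.48, standard error 0.19). With the libraries labelled replicate 5 kept, it was -0.89 in males and -2.10 in females. The methamphetamine-treated hearts of both sexes were at like levels, with means of 2.98 ± 0.748 CPM in females and 3.15 ± 0.853 CPM in males (SD, n = 5 each) and overlapping libraries. Saline-treated females, in contrast, all lay above saline-treated males at day 11, by 2.14-fold in the means (sex and number series cannot be told apart here), as 2.69% of 13863 genes with a mean of at least 1 CPM did. The clock genes moved in the same hearts. Of 13 tested, 8 were called higher and 4 lower in methamphetamine-treated females at day 11, where 4.28% of all genes were called higher and 5.16% lower, among them Dbp (log2 fold change 3.66) and Arntl, which encodes Bmal1 (-5.12), and 5 were called higher and 2 lower in males (3.37% and 3.17% of all genes), with Arntl at -1.76. Only genes named in the study's tables had a symbol, most of them for a change on these same libraries. The counts of clock genes called are therefore not independent evidence. The part of the clock genes in the day 11 levels of the 4 genes was not tested.

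After abstinence, Spon2 in females was between these extremes. Saline-treated females held 9.03, 9.83, 13.5, 13.6 and 14.0 CPM, and methamphetamine-treated females held 4.74, 6.76, 9.93, 10.6 and 14.7 CPM, so the groups overlapped. The log2 fold change was -0.39 (standard error 0.28, 95% interval -0.996 to 0.21), with an adjusted p of 0.994 from edgeR's quasi-likelihood test. Rats of both number series were in this comparison, and with the series as a block the log2 fold change was -0.78 (adjusted p = 0.847, edgeR). The interval does not exclude a difference the size of that in males.

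In males after abstinence, Spon2 had 6.33, 7.04, 7.6, 10.2 and 10.2 CPM with saline and 3.69, 5.23, 5.38, 5.39 and 5.57 CPM with methamphetamine. The methamphetamine-treated males all lay below the saline-treated males, as in 0.646% of 13621 genes. Their level was 1.62-fold lower (log2 fold change -0.70, standard error 0.17, 95% interval -1.05 to -0.34). The unadjusted p was 0.000865, but the adjusted p over all genes was 0.236 in edgeR and the threshold of 0.1 was not passed. With DESeq2 on the same libraries the adjusted p was 0.0630, with a log2 fold change of -0.70. With the libraries labelled replicate 5 kept the log2 fold change was -0.23, and the adjusted p of all alternatives ranged from 0.0630 to 0.999. Genes of the circadian clock moved in the same libraries: of 13 clock and clock output genes tested in males after abstinence, 4 were called higher (0.0587% of all genes) and 2 lower (0.044% of all genes), among them Dbp (log2 fold change 2.38), Nr1d1 (1.86) and Nfil3 (-1.01). Only genes named in the study's tables had a symbol, and the study listed Nr1d1, Cry1 and Nfil3 for a change in males after abstinence. The counts of clock genes called are therefore not independent evidence. The part of the clock genes in the lower Spon2 level was not tested.

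Adamts12 was highest in saline-treated females at day 11, and the other 7 groups formed an overlapping series. In females at day 11 it stood at 72.0, 76.4, 96.2 and 96.8 CPM with saline and at 38.7, 43.9, 46.3, 47.3 and 57.0 CPM with methamphetamine. The groups did not overlap, as was the case below saline for 4.95% of 13986 genes, and the comparison chose the gene. The log2 fold change was -0.87 (standard error 0.11), 1.83-fold lower with methamphetamine. In males at day 11 the libraries ran through each other, at 44.5, 52.4, 59.1, 59.7 and 64.7 CPM with saline and 47.0, 54.5, 61.2, 61.5 and 65.2 CPM with methamphetamine. Their log2 fold change was 0.05 (standard error 0.09).

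The high level of Adamts12 in saline-treated females was also above that of saline-treated males, by 1.52-fold in the means at day 11. These groups did not overlap, as 2.69% of 13863 genes did not in this direction, and sex and number series cannot be told apart here. The level of saline-treated females at day 11 was 1.91-fold above that of saline-treated females after abstinence, again without overlap, as 5.07% of 13863 genes were. After abstinence, Adamts12 was at 30.8, 45.6, 46.2, 46.3 and 54.3 CPM in saline-treated females and at 34.3, 36.8, 40.1, 49.1 and 64.5 CPM in methamphetamine-treated females. Both the highest value and most of the low ones came from methamphetamine-treated females, and the groups overlapped, with a log2 fold change of -0.04 (95% interval -0.42 to 0.35, adjusted p = 0.996, edgeR) whose sign turned when single libraries were left out. Males after abstinence held 41.1, 47.2, 47.6, 49.9 and 53.1 CPM with saline and 38.5, 40.2, 41.9, 47.5 and 47.9 CPM with methamphetamine. These groups overlapped, and the log2 fold change was -0.15 (95% interval -0.32 to 0.02, adjusted p = 0.907, edgeR).

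Tns2 was the only one of the 4 genes with a higher level in methamphetamine-treated females at day 11. Saline-treated females had 130, 141, 141 and 158 CPM, whereas methamphetamine-treated females had 190, 198, 205, 209 and 211 CPM. All of the latter were above all of the former, as 4.83% of genes were, and the log2 fold change was 0.51 (standard error 0.06), or 1.43-fold. In males at day 11, Tns2 was at 151, 158, 159, 186 and 217 CPM with saline and at 133, 156, 159, 163 and 178 CPM with methamphetamine. These male groups overlapped, with a log2 fold change of -0.14 (standard error 0.09), and methamphetamine-treated females lay above all methamphetamine-treated males, as 4.28% of 13863 genes did.

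After abstinence, Tns2 varied most among methamphetamine-treated females, at 136, 153, 171, 203 and 241 CPM, against 145, 147, 168, 178 and 184 CPM in saline-treated females. It differed between these groups by 0.08 on the log2 scale (95% interval -0.19 to 0.35, adjusted p = 0.994, edgeR), and by -0.013 without the library at 241 CPM. The values 136, 153 and 171 CPM came from rats of the earlier number series, and 203 and 241 CPM from the later. With the series as a block the log2 fold change was 0.20 (adjusted p = 0.847, edgeR). In males Tns2 was at 132, 149, 150, 159 and 160 CPM with saline and 151, 178, 178, 181 and 187 CPM with methamphetamine. Apart from the library at 151 CPM, the methamphetamine-treated males lay above the saline-treated males. Their log2 fold change was 0.22 (standard error 0.07, 95% interval 0.07 to 0.37), with an unadjusted p of 0.00765 and an adjusted p of 0.498 from edgeR.

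Sash1 had its highest mean in saline-treated females at day 11 and its lowest in methamphetamine-treated females at day 11. The former had 65.4, 71.6, 72.1 and 75.1 CPM and the latter 42.6, 43.1, 43.2, 43.2 and 45.9 CPM. The groups did not overlap, as was the case below saline for 4.95% of 13986 genes, and the comparison chose the gene. The methamphetamine-treated females were close together, with an SD of 1.31 CPM. Methamphetamine-treated females were 1.63-fold lower (log2 fold change -0.70, standard error 0.06). Males at day 11 held 47.4, 51.6, 58.0, 63.1 and 65.7 CPM with saline and 47.6, 49.9, 52.4, 52.8 and 57.3 CPM with methamphetamine. They overlapped, with a log2 fold change of -0.13 (standard error 0.08). The methamphetamine-treated females lay below all methamphetamine-treated males, as 2.70% of 13863 genes did.

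After abstinence, Sash1 in females was at 44.3, 45.1, 51.4, 57.8 and 58.3 CPM with saline and at 43.3, 45.2, 45.9, 47.9 and 58.7 CPM with methamphetamine. The groups overlapped, and the log2 fold change was -0.13 (95% interval -0.36 to 0.10, adjusted p = 0.994, edgeR). In males it was at 58.5, 60.0, 62.4, 70.5 and 73.0 CPM with saline and at 49.1, 51.2, 56.0, 58.2 and 58.9 CPM with methamphetamine. The groups overlapped by a single methamphetamine library, which at 58.9 CPM lay above the lowest saline library. Here the log2 fold change was -0.25 (standard error 0.08, 95% interval -0.41 to -0.08), with an unadjusted p of 0.00571 and an adjusted p of 0.440 from edgeR.

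**Figure D2:**
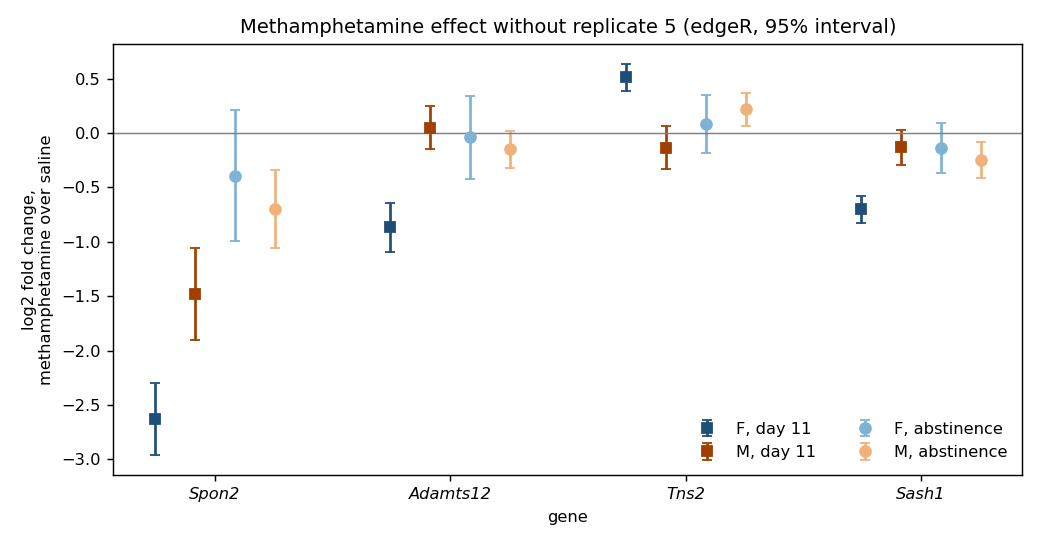
Log2 fold change of methamphetamine over saline (y axis) for each gene (x axis) in the 4 comparisons, from edgeR without replicate 5, with 95% intervals. The day 11 values (squares) chose the genes, and among the abstinence values (circles) the intervals of Spon2, Tns2 and Sash1 in males lie off 0, although no adjusted p passed 0.1.

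None of the 4 genes passed the threshold for methamphetamine after abstinence in either sex with edgeR, whereas DESeq2 called Spon2 in males. In females, 0% of 13610 genes were called by edgeR, with 541 (3.98%) at an unadjusted p under 0.05 and 6 called by DESeq2, and none of the 4 genes was among the 541. For males, edgeR called 0.103% of 13621 genes (14 genes) and DESeq2 called 64 genes. Of the 4 genes, 3 were at an unadjusted p under 0.05 in males, as were 5.94% of all genes. The difference of the methamphetamine effect between the sexes after abstinence was tested itself. It was 0.30 for Spon2 (95% interval -0.42 to 1.02), 0.11 for Adamts12 (-0.31 to 0.53), -0.14 for Tns2 (-0.45 to 0.17) and 0.11 for Sash1 (-0.17 to 0.39) on the log2 scale, females minus males, each with an adjusted p of 0.998 from edgeR. No gene was called for this difference by edgeR (0% of 14020), with 738 (5.26%) at an unadjusted p under 0.05 and 26 called by DESeq2. For each of the 4 genes this interval includes both 0 and a difference as large as the effect in males.

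Spon2 and Sash1 differed between the sexes after abstinence, when both treatments were averaged, in opposite directions. Spon2 was higher in females, by 0.71 on the log2 scale (standard error 0.17, 95% interval 0.35 to 1.07, adjusted p = 0.0129, edgeR), or 1.64-fold. Sash1 was lower in females, with a log2 difference of -0.26 (standard error 0.07, 95% interval -0.40 to -0.13, adjusted p = 0.0161, edgeR), or 1.2-fold. In saline-treated hearts after abstinence all females lay below all males in Sash1, as 3.45% of 13863 genes did, whereas the Spon2 libraries of the sexes overlapped with either treatment. All males here were of the later number series and the females of both, and the test did not take the series into account. In methamphetamine-treated females, Spon2 was at 9.93, 10.6 and 14.7 CPM in the earlier series and at 4.74 and 6.76 CPM in the later. Saline-treated females held 13.6 CPM in the earlier series and 9.03 to 14.0 CPM in the later. The part of the series was not tested. Tns2 (0.08, 95% interval -0.07 to 0.23, adjusted p = 0.567, edgeR) and Adamts12 (-0.02, 95% interval -0.24 to 0.19, adjusted p = 0.914, edgeR) did not pass. Of all 14020 genes tested, 13.6% were called between the sexes, 6.09% higher and 7.47% lower in females, so calls in 2 of 4 genes stand beside a large background. With the libraries labelled replicate 5 kept as labelled, the Spon2 difference was 0.44 and no longer passed (adjusted p = 0.319, edgeR), while that of Sash1 was -0.24 (adjusted p = 0.0546, edgeR). Among the 13 clock genes, 5 were called higher in females in the same test and 0 were called lower. By direction alone, 7 of the 13 were higher in females and 6 lower. The part of the clock genes in these differences was not tested. In the same test the atrial marker Myl4 was higher in females (1.36, adjusted p = 0.0461, edgeR). This lay mostly in methamphetamine-treated females, with means of 15.3 CPM there, 3.18 CPM in saline-treated females, and 2.79 and 2.67 CPM in the males. Spon2 means were higher in females with both treatments, at 9.36 and 12.0 CPM against 5.05 and 8.26 CPM in males. The pericyte marker Pdgfrb was lower in females (-0.18, adjusted p = 0.0145, edgeR), on the side of Sash1. The part of these markers was not tested either.

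Between the time points, the level of Spon2 in saline-treated females at day 11 was 1.56-fold that after abstinence and that of Sash1 1.38-fold. Neither overlapped, as 5.07% of 13863 genes did not in this direction, with 4 libraries at day 11. Time and sequencing pool cannot be told apart in these comparisons. In methamphetamine-treated females, Spon2 at day 11 lay below every library after abstinence, as 1.59% of 13863 genes did. For each of the 4 genes the libraries of both time points overlapped in saline-treated and in methamphetamine-treated males. In the order of the 8 group means, most neighbours overlapped. For Spon2, saline-treated females at day 11 lay above the next group, saline-treated females after abstinence, and saline-treated males after abstinence lay above methamphetamine-treated males after abstinence. For Adamts12, saline-treated females at day 11 lay above methamphetamine-treated males at day 11, the next group. No neighbours were apart for Tns2 or Sash1.

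The libraries labelled replicate 5 fell outside the range of their labelled group in 19 of 32 cases. Spon2 was outside in 6 of 8 groups, Tns2 in 5, and Adamts12 and Sash1 in 4 each. Any further library of a group can fall outside the range of so few others. The share over all genes is not given here, so nothing is read from these counts. For Spon2 at day 11 this library held 5.88 CPM with saline and 7.67 CPM with methamphetamine where labelled female. Where labelled male it held 8.62 and 12.7 CPM. Those labelled female were below their group with saline and above it with methamphetamine, while the saline library labelled male lay within the range. After abstinence the values were 2.55, 7.21, 5.43 and 15.0 CPM in the libraries labelled as saline-treated females, methamphetamine-treated females, saline-treated males and methamphetamine-treated males.

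Marker genes moved with part of these results. Myl4, an atrial myosin light chain, ranged from 5.96 to 92.1 CPM in saline-treated females at day 11 and from 3.0 to 5.67 CPM in methamphetamine-treated females. It ranged from 2.15 to 35.5 CPM in methamphetamine-treated females after abstinence, where Ptprc, the leukocyte antigen CD45, ranged from 19.4 to 76.4 CPM. Pdgfrb, a receptor of pericytes and other mesenchymal cells, had group means of 121 to 160 CPM and was 160 ± 20.9 CPM (SD, n = 4) and 127 ± 10.7 CPM (SD, n = 5) in saline-treated and methamphetamine-treated females at day 11. In males after abstinence, where Sash1 was at -0.25, Pdgfrb had a log2 fold change of -0.23 (unadjusted p = 0.000682, adjusted p = 0.211, edgeR), and in females after abstinence of -0.20 (adjusted p = 0.994, edgeR). Of the 327 genes with a symbol, Pdgfrb was the closest to Sash1 within groups (r = 0.71 over 39 libraries, and 0.82 before the group means were taken off). The 3 markers are 1 of 5 atrial, 1 of 6 leukocyte and 1 of 6 smooth muscle and pericyte markers, and their part in the levels of the 4 genes was not tested.

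Genes whose levels ran most like those of each gene were sought among 327 genes with a symbol, by Pearson's r of log2 CPM over the 39 libraries. Symbols were known for genes named in the study's tables only, most of them listed for a change on these same libraries, and the libraries share groups, so that r is a description. Spon2 ran most like Col5a3, a chain of type V collagen (r = 0.88), Npas2, a clock activator that pairs with Bmal1 (r = 0.88), and Mmp14, a membrane-bound matrix metalloprotease (r = 0.85). After the group means were taken off, r was 0.67, 0.63 and 0.46. The gene least like Spon2 was Mid1ip1, a regulator of fatty acid synthesis (r = -0.89). Col5a3 was at 91.1 ± 6.19 CPM (SD, n = 4) and 18.4 ± 1.82 CPM (SD, n = 5) in saline-treated and methamphetamine-treated females at day 11, and at 64.6 ± 3.17 and 48.3 ± 6.89 CPM (SD, n = 5 each) in males after abstinence. Saline-treated males were thus above saline-treated females after abstinence in Col5a3 means (54.8 CPM in females), whereas the Spon2 means were in the other order.

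Adamts12 ran most like Olfml2b, a secreted olfactomedin-like protein (r = 0.75), Col15a1, a basement membrane collagen (ENSRNOG00000039197, r = 0.73), and Akap12, a scaffold for protein kinases (r = 0.71), and least like Aamp (r = -0.66). Tns2 ran most like Cnksr1, a scaffold of Ras signalling (r = 0.78), Cdc25b, a cell cycle phosphatase (r = 0.78), and Dbp, a clock output factor that binds D-boxes (r = 0.77), and least like Ucp3, a mitochondrial uncoupling protein (r = -0.72). Within groups, r with Cnksr1 was 0.83 and with Dbp 0.76. Rats of a group can still differ in number series, and the part of the series in the values of r within groups was not tested. Sash1 ran most like Clock, the core clock activator (r = 0.85), Adam17, a protease that sheds membrane proteins (r = 0.85), and Rnf144a, a ubiquitin ligase (r = 0.84), and least like Tom1, an endosomal sorting protein (r = -0.75). Within groups, r was 0.61 with Clock and 0.67 with Adam17.

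**Figure D3:**
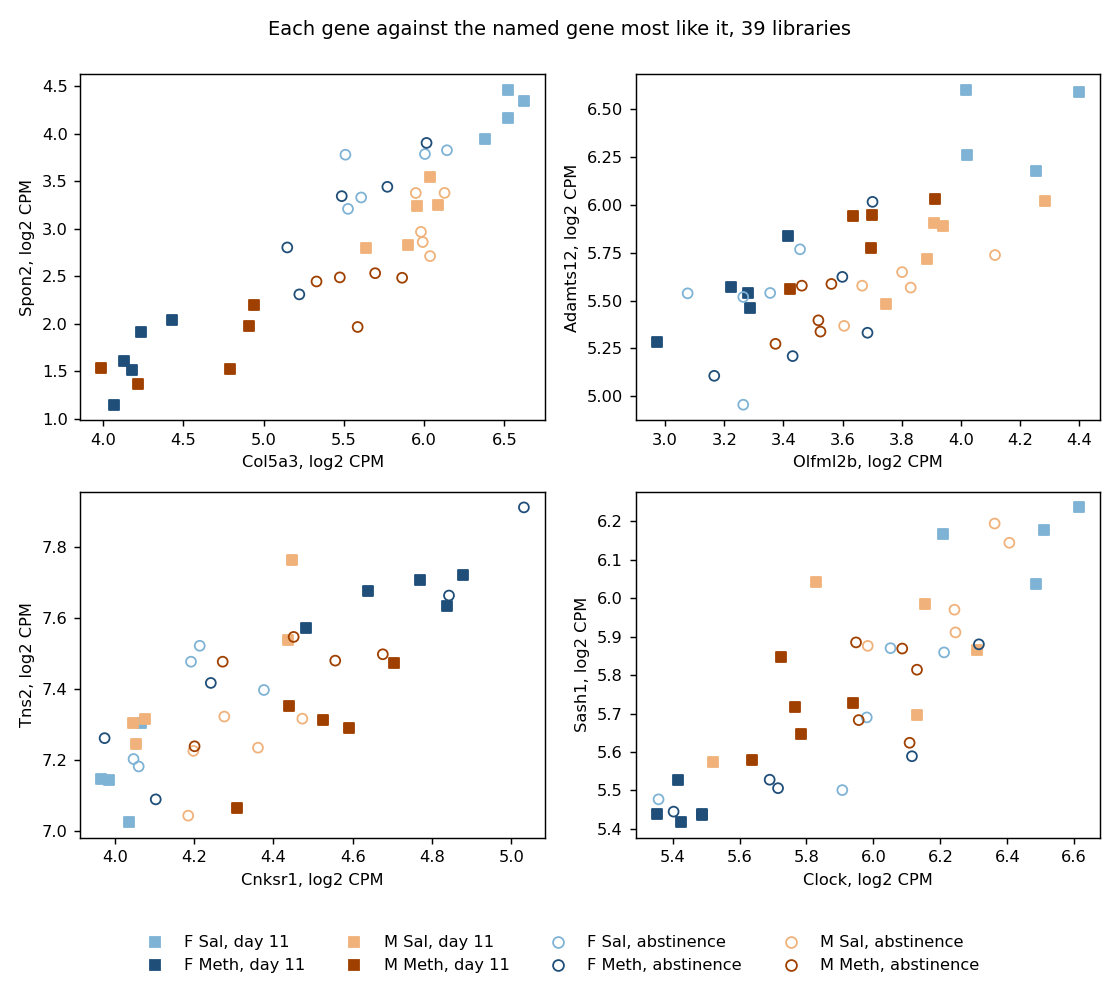
Log2 CPM of each gene (y axes) against that of the named gene with the highest r (x axes) in 39 libraries, coloured by sex and treatment, with squares for day 11 and circles for abstinence. The r is 0.88 for Spon2 with Col5a3, 0.75 for Adamts12 with Olfml2b, 0.78 for Tns2 with Cnksr1 and 0.85 for Sash1 with Clock.

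Among the 4 genes themselves, Adamts12 and Sash1 ran together most closely (r = 0.63, and 0.62 within groups, 39 libraries). Spon2 and Sash1 had r = 0.51 over all libraries but 0.05 within groups. Spon2 and Tns2 ran in opposite directions (r = -0.48). Within groups this was so after abstinence (r = -0.69, 20 libraries) and not at day 11 (r = 0.06, 19 libraries). Taking off group means left the number series in. Methamphetamine-treated females of the earlier series after abstinence held Spon2 at 10.6, 14.7 and 9.93 CPM and Tns2 at 171, 136 and 153 CPM. Those of the later series held Spon2 at 4.74 and 6.76 CPM and Tns2 at 241 and 203 CPM. The part of the series in this r was not tested.

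Other matrix and adhesion genes were taken from 9 lists of 157 symbols, of which 19 had a row and Col15a1 had 2. As the study's tables name these genes mostly for a change in females at day 11, their direction there is not independent evidence. In that comparison 18 of 20 rows were called lower and 2 higher, with a median log2 fold change of -0.62, where 9.43% of all genes were called. The largest values belonged to Col5a3 (-2.30), Eln, the elastin gene (-2.14), Mmp14 (-1.80), Loxl1, a cross-linking enzyme of elastic fibres (-1.49), and Fbn1, which encodes fibrillin (-1.05). The genes called higher were Sorbs3, the focal adhesion protein vinexin (0.46), and Timp3, a metalloprotease inhibitor (0.39).

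In males at day 11, 19 of the 20 rows were on the lower side and 8 were called lower, where 6.54% of all genes were called. The study's lists were made with these male libraries too, so the male values are also a description and not independent evidence. Treatment and number series cannot be told apart in this comparison. At an unadjusted p under 0.05 were 12 of the 20 rows and 22.6% of all genes. The median was -0.31, against -0.02 for all genes. The largest were again Col5a3 (-1.32, adjusted p = 0.00408, edgeR), Eln (-1.12, adjusted p = 0.0130, edgeR) and Mmp14 (-0.89, adjusted p = 0.0130, edgeR), followed by Loxl1 (-0.75) and Fbn1 (-0.51). After abstinence the medians were -0.12 in females and 0.02 in males. In females 0 of 20 were called, with 1 at an unadjusted p under 0.05. In males 1 of 20 was called lower, Adam19, a membrane-bound metalloprotease (-0.32, adjusted p = 0.0987, edgeR). At an unadjusted p under 0.05 were 5 of the 20 rows in males, all of them lower, and 5.94% of all genes. Col5a3 (-0.42, adjusted p = 0.142, edgeR) and Eln (-0.38, adjusted p = 0.211, edgeR) did not pass, as Spon2 did not.

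Between the sexes after abstinence, 8 of these 20 rows were called lower in females and 1 higher, where 7.47% of all genes were called lower and 6.09% higher. The lower genes were Eln (-0.51), Col4a1 (-0.44), Fbn1 (-0.37), Ltbp1 (-0.28), Col4a2 (-0.28), Col6a2 (-0.23), Adam17 (-0.20) and Col6a1 (-0.18), which encode matrix proteins, a protein that stores TGF-beta in the matrix (Ltbp1) and a sheddase (Adam17). The higher gene was Lims2, a focal adhesion adaptor (0.18, adjusted p = 0.0557, edgeR). Sash1 thus lay on the side of most of these genes, and Spon2 on the other. The 20 rows were matched only because the study's tables name them, so all genes are not a like background. Males here were of the later number series and females of both, and the part of the series was not tested.

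**Figure D4:**
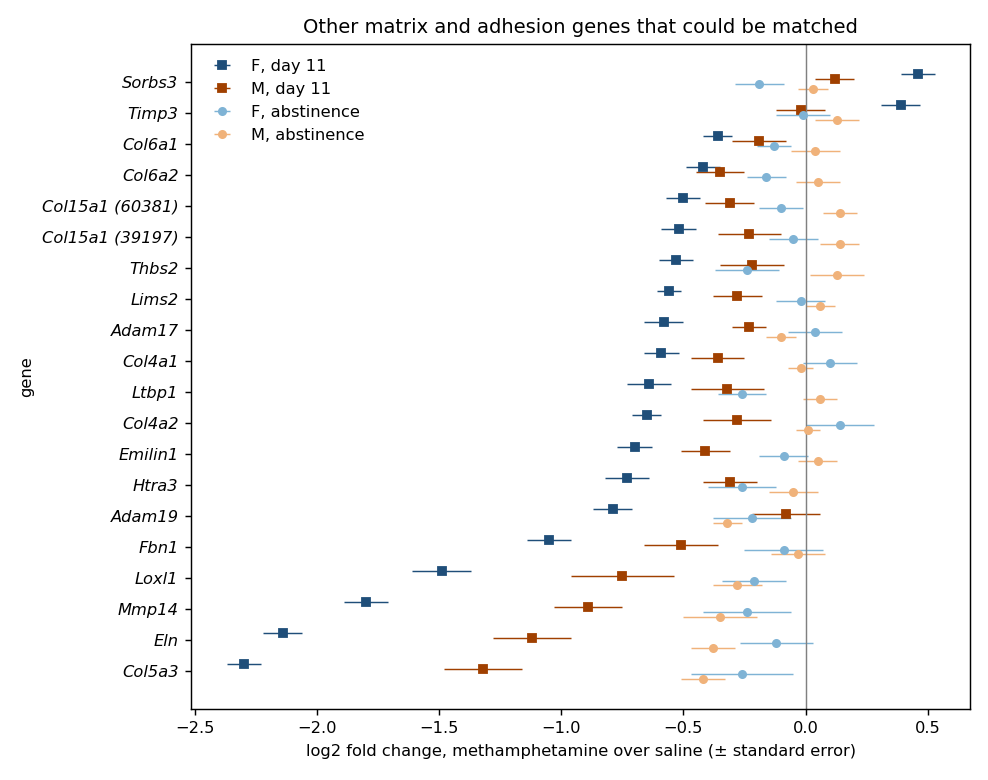
Log2 fold change of methamphetamine over saline (x axis, ± standard error) of 20 rows of other matrix and adhesion genes (y axis) in females and males at day 11 (squares) and after abstinence (circles), with the last digits of the identifier for both rows of Col15a1. At day 11, 18 rows in females and 19 in males lie below 0, and after abstinence 17 in females and 9 in males do.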

How the data were processed

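RNA of rat left ventricles was sequenced by the authors, and 47 libraries are analysed here. The authors used Trimmomatic 0.38 for trimming and HISAT2 2.1.0 for alignment to rn6 (Rnor_6.0), and counted reads on Ensembl genes. The deposited tables hold a count per gene and library, and a normalized signal, which the authors made by dividing each library's counts by a size factor (checked). How reads on several genes were treated, and whether counting used strand, is not given in the sources used here, so overlapping genes may share reads. Total counts were 6661581 to 11314050 per library. The library that the study left out was not analysed here.

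Groups were taken from the labels. Litters were divided over groups and each library is 1 rat, so p-values measure the spread between rats. No pair of libraries of the same group, of 115, was as alike as sampling noise alone would make it. Counts were tested with edgeR 4.0.16 (quasi-likelihood, TMM, default filterByExpr) in R 4.3.3 without the libraries labelled replicate 5, each comparison on its own libraries, with calls made at p under 0.1 after Benjamini-Hochberg adjustment. Standard errors were the log2 fold change over the square root of F, and the 95% intervals used the matching quantile with the total degrees of freedom. Scripts were tested on simulated data. Alternatives were replicate 5 kept, DESeq2 1.42.0, a single fit of all groups, RLE factors, no filter, at least 10 counts in every library, limma 3.58.1 on log2 of the deposited signal plus 1 or 0.1, the replicate number or the rat number series as a block, and each library left out.

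The genes and lists were chosen with earlier results of these data known. Named were the 4 genes, for each the 3 genes with a symbol that had the highest r and the 1 with the lowest (log2 CPM, prior count 2), of each list up to 4 genes called at day 11 with the largest change, and listed genes called after abstinence, up to 10. The matched markers were named, and 2 genes of the list of TGF-beta and YAP targets, while another of its genes is not reported here. Male genes were those whose median was 20 counts or more with a male label and no more than 1 with a female label. Female genes had 20 or more with a female label, at least 10-fold the male value. Symbols came from the study's tables and matched 328 genes.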

Additional observations from a re-analysis of the deposited data

Results flagged for a closer look

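Each of the 4 genes in each group gave a set of 4 or 5 library values, 32 sets in all. Of these, 3 held a library whose gap to its neighbour was large for the range of the set, and chance gives about 1 in 20 sets. The sets of the 4 genes share the same libraries and are not independent. Spon2 was at 3.69 CPM in replicate 3 of methamphetamine-treated males after abstinence, the lowest of its group. Tns2 was at 151 CPM in replicate 6 of the same group, also the lowest. Sash1 was at 45.9 CPM in replicate 6 of methamphetamine-treated females at day 11, the highest of a group that otherwise spanned 42.6 to 43.2 CPM.

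Among the libraries labelled replicate 5, which were left out of the comparisons of the report except where they are said to be kept, some labelled as methamphetamine-treated lay above every saline library of their labelled sex and time point. Spon2 was at 12.7 CPM in the one labelled male at day 11 (highest saline library 11.5 CPM) and at 15.0 CPM in the one labelled male after abstinence (highest saline library 10.2 CPM). Adamts12 was at 60.7 CPM in the one labelled female after abstinence (54.3 CPM) and at 88.2 CPM in the one labelled male after abstinence (53.1 CPM). The sex genes of these libraries were mostly those of the other sex than the label.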

How the results depend on the processing

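Of 686 values recomputed under alternatives, 632 kept their direction and side of the threshold or moved by less than the stated limits. Keeping the libraries labelled replicate 5 as labelled had the widest effect. The genes called then numbered 581 in females and 0 in males at day 11 (1319 and 908 without them), 0 in males after abstinence (14 without them) and 932 between the sexes (1901 without them). Under this setting the log2 fold change of Spon2 was -2.10 and -0.89 in females and males at day 11 and its sex difference was 0.44. That of Adamts12 turned sign to 0.027 in females and 0.020 in males after abstinence, and the differences between the sexes in the effect turned to -0.0049 for Adamts12 and -0.040 for Spon2. After abstinence DESeq2 called 6 genes for females, 64 for males and 26 for the difference of effects, and at day 11 it called 1526 in males, and Spon2 in males after abstinence (-0.70) passed. A single fit of all groups called 163 genes in females and 5 in males after abstinence and 839 in females at day 11. Without a filter, 27 genes were called in males after abstinence and 1 for the difference of effects, and limma with a pseudocount of 0.1 called 1 for the latter. The cause was not tested.

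With single libraries left out, the genes called ranged from 990 to 1411 in females and from 153 to 1442 in males at day 11, the ends without methamphetamine replicate 2 and without saline replicate 3 in males. They ranged from 2 to 62 in males after abstinence, the ends without saline replicate 4 and without methamphetamine replicate 6, from 1415 to 2160 between the sexes and from 0 to 1 for the difference of effects, and stayed at 0 in females after abstinence. Adamts12 turned sign in females after abstinence (-0.20 to 0.055; 0.0028 without methamphetamine replicate 2, 0.03 without saline replicate 3, 0.02 without methamphetamine replicate 4), in the sex difference (-0.11 to 0.025), in the difference of effects (-0.056 to 0.20) and in males at day 11 (-0.0020 to 0.11). Tns2 in females after abstinence ranged from -0.013, without methamphetamine replicate 4, to 0.15. Spon2 in the same comparison ranged from -0.65 to -0.21.

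Same-numbered libraries of the groups compared deviated together with r from -0.47 to 0.15, so the numbers do not pair the samples. With the replicate number as a block, 30 genes were called in males after abstinence and no call of the 4 genes changed. Spon2 had 20 to 212 counts in a library, the lowest of the 4 genes, and counting error is largest for it.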

Other observations

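Genes of TGF-beta signalling moved in both directions in females at day 11. Smad7, an inhibitory Smad, was called higher (log2 fold change 0.45, standard error 0.09), whereas Smad3, a transducer of TGF-beta signals, was called lower (-0.58, standard error 0.07). These genes were named by the study on these libraries. In males at day 11 neither was called by edgeR or was at an unadjusted p under 0.05, and the values were -0.01 and -0.07. In females after abstinence Smad7 was at 0.34 (adjusted p = 0.994, edgeR) and Smad3 at -0.12 (adjusted p = 0.994, edgeR), and neither passed. The lists of ADAMTS genes, laminins and proteoglycans, integrins, and SASH family and TLR4 signalling had 0 symbols matched and were not analysed here.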
